A study of Mus musculus with 22 samples.

Results

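C57 embryonic stem cells (ESCs) were compared with E14 ESCs in 7 of the 22 RNA-seq libraries of the series. The C57_ESC group held 2 libraries of wild-type cells labelled with the cell line C57. The comparison groups were E14_ESC, 3 wild-type E14 libraries titled ESC, and TG2A_ESC, 2 wild-type E14 libraries titled TG2A.NG.PB.ESC. All 3 groups were labelled as grown in ESC medium with LIF. The libraries were chosen by line and medium alone. Tests covered the 16796 autosomal genes that passed a filter on low counts, and a gene was taken as agreeing when it was called in the same direction against both E14 sets. In all, 3652 of the 16796 genes agreed, 21.7% of those tested. Because the choice of these genes used both contrasts, their values there are a description.

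Each background is represented by 1 line, and the labels name it only as C57 or E14, so line, strain and sex chromosomes cannot be told apart here. Nothing in the labels states that replicates came from separate cultures, so p-values measure the spread between these libraries, which may be technical. The study as a whole asked how EZH2, the H3K27 methyltransferase of Polycomb repressive complex 2 (PRC2), restrains primitive endoderm (PrE) fate, and the C57 cells entered it as ESCs and as PrE stem cells (C57_PrESC, 2 libraries). The other E14 libraries contrasted here were PrE stem cells induced with EPZ-6438, an EZH2 inhibitor (EPZ_iPrE1 and EPZ_iPrE2, 2 libraries each). The 18 E14 libraries of the series also included Ezh2 knockout cells titled SL and S2iL, rescued knockout cells and wild-type cells titled S2iL. These further libraries entered only the shared fit and the comparisons with all 18 E14 libraries.

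ESCs are cultured from the inner cell mass of the blastocyst, and LIF holds them in a self-renewing state through STAT3. E14 cells come from another inbred strain than C57BL/6J, the source of the reference assembly mm10. Mouse ESC lines are known to differ in sex chromosomes, in copy number gains of whole chromosomes, and in the DNA methylation that keeps imprinted genes on 1 parental allele.

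The 7 libraries held between 16.2 and 26.3 M estimated counts each, and levels are given as CPM, counts per 1e6 counts of a library after TMM scaling. Among ESC markers, Nanog, Sox2 and Esrrb were called against neither E14 set. Nanog had 449 and 420 CPM in C57_ESC, against 384, 306 and 271 CPM in E14_ESC and 276 and 365 CPM in TG2A_ESC. Sox2 had 440 and 431 CPM in C57_ESC, against 445, 458 and 402 CPM in E14_ESC and 386 and 400 CPM in TG2A_ESC. The markers Zfp42 and Pou5f1, described below, were called lower against both sets and against TG2A_ESC alone, respectively. Y-linked genes set both C57_ESC libraries apart, and fibroblast markers set replicate 2 apart. The Y-linked helicase gene Ddx3y had 0.053 and 2.98 CPM in C57_ESC, against 61.1, 57.2 and 50.8 CPM in E14_ESC and 39.3 and 51.7 CPM in TG2A_ESC, while C57_PrESC had 158 and 150 CPM. C57_ESC and C57_PrESC therefore carry the same line label but differ in Y-linked expression. The summed level of 20 fibroblast (feeder) markers was 162 CPM in C57_ESC replicate 1 and 915 CPM in replicate 2, against 113, 112 and 103 CPM in E14_ESC and 153 and 213 CPM in TG2A_ESC. None of the 20 was at 0 in C57_ESC replicate 2, 2 were at 0 in replicate 1, and 2 to 6 were at 0 in the E14 libraries.

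The 2 C57_ESC libraries were less alike than E14 replicates. Their log2 CPM correlated at 0.96 over the tested autosomal genes, and 3129 genes (18.6%) lay more than 2-fold apart. Pairs of E14_ESC libraries correlated at 0.985 to 0.989 with 6.37 to 7.7% of genes that far apart, and the TG2A_ESC pair at 0.98 with 11.2%. The genes share each library's depth and scaling, so these correlations describe the libraries and are not tests.

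Against E14_ESC, 3018 genes rose and 2702 fell in C57_ESC, so that 34.1% of the tested genes were called at an adjusted p below 0.05. Against TG2A_ESC, 3337 rose and 3228 fell, 39.1% of the tested genes. The 2 E14 sets also differed from each other: 1909 genes were higher and 2206 lower in E14_ESC than in TG2A_ESC, 24.5% of the tested genes. Agreement against both sets left 1923 genes that rose (11.4%) and 1729 that fell (10.3%). Both contrasts use the same 2 C57_ESC libraries. Of the agreeing genes, 908 rises and 649 falls were at least 2-fold in both contrasts. Both C57_ESC libraries lay above all 5 E14 libraries for 1833 of the rises and below all 5 for 1699 of the falls, whereas 18.6% of all tested genes lay wholly above and 17.9% wholly below. Without C57_ESC replicate 2, 1137 of the rises (59.1%) and 1051 of the falls (60.8%) were still called, and without replicate 1, 1532 and 1235 were. In refits without replicate 2, 7.73% of the genes then tested rose and 7.47% fell against both sets, and without replicate 1, 11.9% rose and 9.93% fell. Replicate 2 exceeded replicate 1 more than 4-fold in 134 of the rises, and replicate 1 exceeded replicate 2 that far in 9. Of 121 agreeing genes followed through 13 alternative fits, leave-one-out fits included, 61 stayed called in both contrasts under each. Where a gene named below lost its call when 1 library was left out, that library is given. Other alternatives also ended calls of genes named below. Fitted on only the groups compared, Blcap, Dppa3, Entpd4, Gbp2b, Igf2, Mcts2, Mirg, Nes, Pdgfra, Zfp264 and Zscan4f were lost. With a replicate block, Col6a3, Gbp2b, Inhba, Mcts2, Zdbf2 and Zfp264 were lost. Blcap and Mcts2 were lost without the filter on low counts, and Trim12a under DESeq2.

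**Figure D1:**
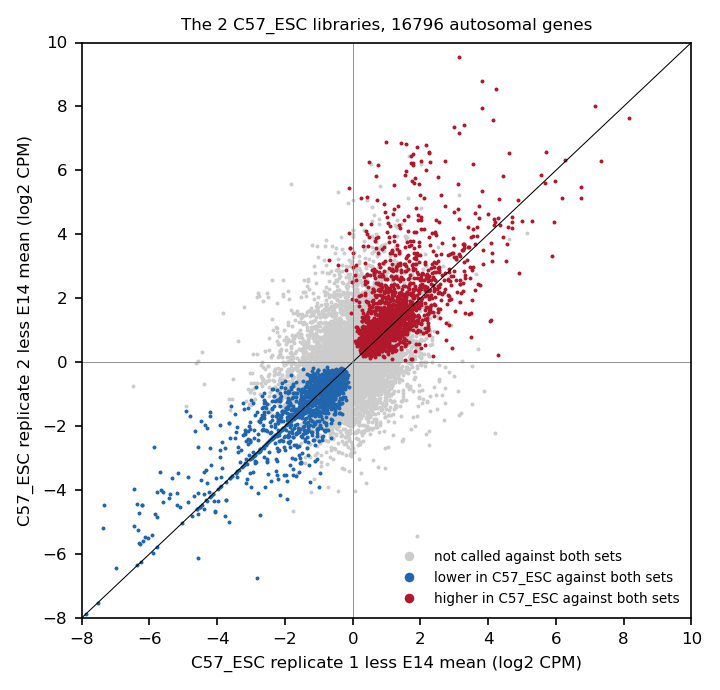
Each point is 1 of 16796 autosomal genes, with its log2 CPM in C57_ESC replicate 1 (horizontal) and replicate 2 (vertical) less the mean of the E14_ESC and TG2A_ESC group means, and the diagonal marks equal differences. The 1923 rises (red) include 134 genes more than 4-fold higher in replicate 2 than in replicate 1, which lie far above the diagonal, and the 1729 falls (blue) lie closer to it.

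Zfp42 was the 1 landmark ESC gene of 12 that fell against both E14 sets. Zfp42 (Rex1) encodes a zinc finger protein used as a marker of naive pluripotency. C57_ESC libraries had 83.7 and 57.6 CPM, against 701, 661 and 616 CPM in E14_ESC and 765 and 832 CPM in TG2A_ESC. The groups did not overlap: both C57_ESC libraries were far below all 5 E14 libraries. Zfp42 fell by 3.22 ± 0.133 on the log2 scale against E14_ESC (SE, edgeR adjusted p = 4.31e-11) and by 3.5 ± 0.139 against TG2A_ESC (SE, edgeR adjusted p = 3.07e-11), and it stayed called in all 13 alternatives. Its estimated counts were fractional in 4 of the 7 libraries, so part of them was shared with other features, by a rule that the labels leave unstated. The gene (ENSMUSG00000051176) lies on the minus strand of chromosome 8 from 43295063 to 43306980 in GRCm38.

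Both neighbouring Triml genes, named after their values were seen, were lower as well. Triml1 (chr8:43129807-43141486, minus strand) had 13.4 and 10.8 CPM in C57_ESC, against 45.9, 48.4 and 53.9 CPM in E14_ESC and 52.5 and 73.3 CPM in TG2A_ESC. Triml2 (chr8:43180541-43193881, plus strand) had 20.4 and 11.9 CPM in C57_ESC, against 81.4, 71.4 and 74.6 CPM in E14_ESC and 112 and 145 CPM in TG2A_ESC. Triml1 fell by 2.03 and 2.38 and Triml2 by 2.23 and 2.99 on the log2 scale against E14_ESC and TG2A_ESC, with edgeR adjusted p-values of at most 2.86e-07. Within 1 Mb of Zfp42, 5 of 24 listed symbols passed the filter on low counts. The others were Gm45659, without a count in the 7 libraries, and the pseudogene Gm6284, which fell against E14_ESC but not against TG2A_ESC.

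The start regions of these 3 genes are shown because the genes lie next to each other and were lower together. Each runs from 250 bases before to 50 bases after the gene start in RefSeq (GRCm38.p6). Capitals mark the octamer ATTTGCAT or its reverse complement ATGCAAAT, the motif bound by POU factors such as Pou5f1.
Zfp42, chr8:43306960-43307259, minus strand: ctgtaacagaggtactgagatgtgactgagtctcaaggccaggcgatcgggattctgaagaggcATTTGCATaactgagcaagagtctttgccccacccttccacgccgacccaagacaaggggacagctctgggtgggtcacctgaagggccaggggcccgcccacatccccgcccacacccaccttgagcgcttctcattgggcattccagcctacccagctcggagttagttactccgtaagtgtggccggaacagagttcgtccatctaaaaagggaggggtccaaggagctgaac
Triml1, chr8:43141437-43141736, minus strand: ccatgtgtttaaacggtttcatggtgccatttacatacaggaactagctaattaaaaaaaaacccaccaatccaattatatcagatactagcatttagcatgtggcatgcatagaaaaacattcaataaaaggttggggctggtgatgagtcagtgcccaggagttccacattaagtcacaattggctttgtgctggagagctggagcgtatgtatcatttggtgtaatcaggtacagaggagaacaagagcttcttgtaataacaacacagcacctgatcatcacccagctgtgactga
Triml2, chr8:43180286-43180585, plus strand: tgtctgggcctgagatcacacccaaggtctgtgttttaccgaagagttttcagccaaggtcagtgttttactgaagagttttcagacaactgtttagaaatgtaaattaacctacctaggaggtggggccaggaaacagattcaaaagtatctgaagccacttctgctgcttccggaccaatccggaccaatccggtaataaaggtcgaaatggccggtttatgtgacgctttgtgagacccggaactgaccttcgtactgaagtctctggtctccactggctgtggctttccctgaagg
The octamer occurs in the Zfp42 window and in neither Triml window, and 1.74% of 32851 RefSeq windows of the same length hold it. Pou5f1, which encodes the POU factor of pluripotent cells, had 1120 and 687 CPM in C57_ESC, against 897, 873 and 1060 CPM in E14_ESC and 1430 and 1860 CPM in TG2A_ESC, and was called lower against TG2A_ESC but not against E14_ESC (edgeR adjusted p = 0.83).

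Of the other landmark genes, 10 did not agree. Dppa3, a germ cell and preimplantation factor, was called higher against both sets, with 13.6 and 91.2 CPM in C57_ESC, against 7.79, 8.55 and 14.5 CPM in E14_ESC and 10.6 and 0.996 CPM in TG2A_ESC. Its groups overlapped, and the call was lost without C57_ESC replicate 2, E14_ESC replicate 1, E14_ESC replicate 2 or TG2A_ESC replicate 2. Klf4 varied within the line, with 303 and 58.2 CPM in C57_ESC, against 119, 108 and 85.5 CPM in E14_ESC and 86.8 and 144 CPM in TG2A_ESC. Otx2, a formative-state homeobox gene, was lower against E14_ESC alone, with 4.4 and 19.4 CPM in C57_ESC, against 37.3, 45.1 and 47.8 CPM in E14_ESC and 34.3 and 9.49 CPM in TG2A_ESC. Ezh2 had 239 and 194 CPM in C57_ESC, against 173, 181 and 184 CPM in E14_ESC and 194 and 200 CPM in TG2A_ESC, and was called in neither contrast.

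Across the list of 16 tested naive pluripotency genes, 2 rose and 2 fell in both contrasts (12.5% each, against 11.4% and 10.3% of all tested genes), with medians of -0.29 and -0.23 against E14_ESC and TG2A_ESC, beside 0 and 0.02 over all tested genes. Of 13 tested general pluripotency genes, 1 rose (7.69%) and 2 fell (15.4%). The riser, Tdgf1 (a Nodal co-receptor), had 1670 and 817 CPM in C57_ESC, against 537, 543 and 520 CPM in E14_ESC and 438 and 608 CPM in TG2A_ESC. Khdc3, an oocyte and ESC protein gene, fell, with 20.9 and 34.2 CPM in C57_ESC, against 68.2, 75.6 and 73 CPM in E14_ESC and 102 and 68.6 CPM in TG2A_ESC. Of 12 tested formative and primed genes, 5 rose (41.7%, against 11.4% of all tested genes) and 1 fell, and 2 rises and 1 fall were called without C57_ESC replicate 2. Zic5, a zinc finger gene of the formative state, had 34.1 and 103 CPM in C57_ESC, against 22.1, 18.5 and 13 CPM in E14_ESC and 16.3 and 12.2 CPM in TG2A_ESC. Dnmt3a, a de novo DNA methyltransferase, averaged 314 ± 41.7 CPM in C57_ESC (SD, n = 2), against 153 ± 21.4 CPM in E14_ESC (SD, n = 3) and 193 ± 32.1 CPM in TG2A_ESC (SD, n = 2). Both stayed called without either C57_ESC library, while Zic2 and Pou3f1 lost their calls without replicate 2, and Pou3f1 also without TG2A_ESC replicate 2.

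Genes of the PrE list differed between the E14 sets as well as between lines. Of 21 tested PrE transcription factors and markers, 13 rose against E14_ESC and 2 against TG2A_ESC, where 18% and 19.9% of all tested genes rose, and the list median was 2.05 and 0.55 in these contrasts and -1.44 for E14_ESC over TG2A_ESC. Sparc, a matrix glycoprotein gene abundant in parietal endoderm, was called against both, with 359 and 420 CPM in C57_ESC, against 90.6, 87 and 114 CPM in E14_ESC and 180 and 214 CPM in TG2A_ESC. Pdgfra, a PrE receptor gene, had 19.7 and 8.08 CPM in C57_ESC, against 1.56, 1.08 and 0.746 CPM in E14_ESC and 2.45 and 6.5 CPM in TG2A_ESC, and lost its call without C57_ESC replicate 1 or TG2A_ESC replicate 1. The list sum was 2150 and 1210 CPM in C57_ESC, against 1250, 1300 and 1250 CPM in E14_ESC and 1310 and 1410 CPM in TG2A_ESC, so replicate 1 alone was high. Without C57_ESC replicate 2, 10 of the 21 were called higher against both sets and none lower (7.73% and 7.47% of all tested genes), and without replicate 1, 1 was called higher and 2 lower (11.9% and 9.93%).

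The largest rises held some genes that were high in both C57_ESC libraries and others that were high mainly in replicate 2. By the smaller of both log2 changes, with at least 10 CPM in the higher line and no overlap of libraries, the 15 largest rises were Inhba, Tnc, Olig2, Lox, Col1a2, H19, Col6a3, Olig1, Pnp2, Acta2, Ptgs2, Col1a1, Col5a2, Nod1 and Csf1. Only Olig2, H19, Olig1, Pnp2 and Nod1 stayed called without C57_ESC replicate 2, and all 15 stayed called without replicate 1.

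Olig1 and Olig2, neighbouring genes for basic helix-loop-helix factors of the oligodendrocyte lineage, were on in both C57_ESC libraries. Olig2 (ENSMUSG00000039830, chr16:91225457-91228677, plus strand) had 43.6 and 29.8 CPM in C57_ESC, against 0.18, 0.0598 and 0 CPM in E14_ESC and 0 and 0.0524 CPM in TG2A_ESC. Olig1 (ENSMUSG00000046160, chr16:91269772-91271933, plus strand) had 35.2 and 33.3 CPM in C57_ESC, against 0.539, 0.717 and 0.634 CPM in E14_ESC and 0.781 and 0.367 CPM in TG2A_ESC. Olig1 rose by 5.75 ± 0.42 on the log2 scale against E14_ESC and by 5.88 ± 0.505 against TG2A_ESC (SE, edgeR adjusted p = 2.03e-07 and 1.09e-06). Of the neuroectoderm list, 1 of 6 tested members, the intermediate filament gene Nes, rose (16.7%, against 11.4% of all tested genes) and none fell, and Nes lost its call without C57_ESC replicate 2 or TG2A_ESC replicate 2.

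Nod1, an intracellular sensor of bacterial peptidoglycan, had 26.8 and 30.5 CPM in C57_ESC, against 0.419, 0.837 and 0.896 CPM in E14_ESC and 0.676 and 1.26 CPM in TG2A_ESC. It rose by 5.28 ± 0.36 against E14_ESC and by 4.88 ± 0.415 against TG2A_ESC on the log2 scale (SE, edgeR adjusted p = 2.41e-08 and 3.37e-07), and the 4 C57 libraries, PrE stem cells included, lay above all 18 E14 libraries. In the interferon-inducible and innate sensing list, 3 of 31 tested members rose (9.68%, against 11.4% of all tested genes) and 1 fell (3.23%, against 10.3%), none of them kept without C57_ESC replicate 2. Without replicate 1, 12 rises were called, where 11.9% of all tested genes rose.

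The other 10 of the 15 largest rises were lost without C57_ESC replicate 2. Col1a1, a fibrillar collagen of fibroblasts and bone, had 7.47 and 146 CPM in C57_ESC, against 2.16, 1.85 and 3.02 CPM in E14_ESC and 2.71 and 0.629 CPM in TG2A_ESC. Tnc, a matrix glycoprotein, had 1.85 and 165 CPM in C57_ESC, against 0.18, 0.12 and 0.0746 CPM in E14_ESC and 0.104 and 0.105 CPM in TG2A_ESC. Inhba, which encodes the activin A subunit, had 1.91 and 40.1 CPM in C57_ESC and no count in the 5 E14 libraries. From a floor of 3 counts over each set, it was at least 422-fold higher than in E14_ESC and at least 268-fold higher than in TG2A_ESC, bounds that rest on replicate 2 and are 38.3-fold and 24.4-fold without it. In each of these, replicate 2 was far above replicate 1, in the library with 915 CPM of fibroblast markers. Of 20 fibroblast markers, 6 rose (30%, against 11.4% of all tested genes) and none fell (against 10.3%), and 0 rises were called without replicate 2. The part of other cells in these rises was not tested, and in bulk samples fewer cells of a type and less RNA per cell cannot be told apart. Several of these calls were also lost without an E14 library: Tnc, Lox, Col6a3, Ptgs2, Col1a1 and Inhba were lost without either TG2A_ESC library, Col1a2, Acta2 and Col5a2 without TG2A_ESC replicate 2, and Inhba without any single E14_ESC library.

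**Figure D2:**
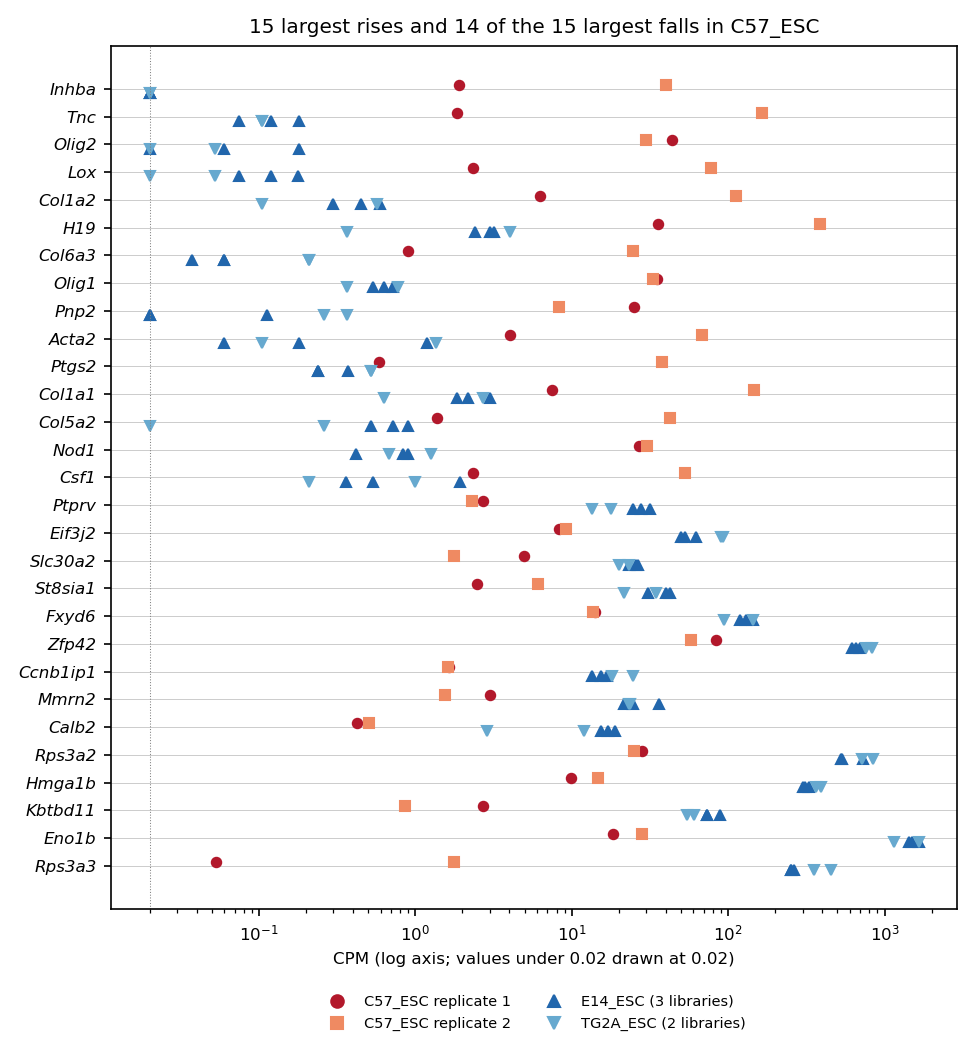
CPM on a log axis in each of the 7 ESC libraries for the 15 largest rises (top) and 14 of the 15 largest falls (bottom) among agreeing genes, with C57_ESC libraries drawn just above the E14 libraries in each row. Olig1, Olig2 and Nod1 have both C57_ESC points together, Col1a1 and Tnc have replicate 2 far to the right of replicate 1, and the falls have both C57_ESC points left of all 5 E14 points.

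Among the falls, 14 of the 15 largest stayed called without replicate 2 and 14 without replicate 1, Ptprv, a receptor-type phosphatase gene, being lost in each case and also without TG2A_ESC replicate 2. Apart from Zfp42 and gene copies described below, they included Kbtbd11, Calb2, Mmrn2, Ccnb1ip1, Fxyd6, St8sia1, Slc30a2 and Ptprv. Kbtbd11, which encodes a Kelch and BTB domain protein, had 2.7 and 0.858 CPM in C57_ESC, against 72.8, 73.8 and 88.1 CPM in E14_ESC and 54.6 and 60.9 CPM in TG2A_ESC. It fell by 5.46 ± 0.407 and by 5.02 ± 0.413 on the log2 scale (SE, edgeR adjusted p = 7.08e-08 and 2.31e-07). Fxyd6, a regulator of the sodium pump, had 14 and 13.6 CPM in C57_ESC, against 120, 131 and 145 CPM in E14_ESC and 94.4 and 145 CPM in TG2A_ESC. Ccnb1ip1, a gene of meiotic crossing over, had 1.64 and 1.62 CPM in C57_ESC, against 15.3, 13.5 and 16.8 CPM in E14_ESC and 18 and 24.7 CPM in TG2A_ESC, and all 4 C57 libraries lay below all 18 E14 libraries.

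Of the 15 largest falls, 5 were copies of a gene that has another member elsewhere in the genome: Rps3a2, Rps3a3, Eno1b, Hmga1b and Eif3j2. In each family the copy was low in C57_ESC while the other member rose or, for Eno1, was not called. Rps3a3 had 0.053 and 1.77 CPM in C57_ESC, against 252, 252 and 263 CPM in E14_ESC and 356 and 455 CPM in TG2A_ESC. Rps3a2 had 28.3 and 25.2 CPM in C57_ESC, against 529, 538 and 730 CPM in E14_ESC and 720 and 846 CPM in TG2A_ESC. The other member, Rps3a1, a gene for a protein of the small ribosomal subunit, went the other way, with 1470 and 1290 CPM in C57_ESC, against 752, 707 and 690 CPM in E14_ESC and 776 and 900 CPM in TG2A_ESC. The sum over the Rps3a family averaged 1410 CPM in C57_ESC, against 1570 CPM in E14_ESC and 2030 CPM in TG2A_ESC. For the glycolytic enolase pair, Eno1b had 18.4 and 28.2 CPM in C57_ESC, against 1430, 1650 and 1500 CPM in E14_ESC and 1150 and 1650 CPM in TG2A_ESC, and Eno1 was called in neither contrast. The chromatin protein gene Hmga1 and the initiation factor gene Eif3j1 both rose, by 1.39 and 1.5 on the log2 scale against E14_ESC and by 1.06 and 0.99 against TG2A_ESC, while Hmga1b fell by 4.66 and 4.93 and Eif3j2 by 2.65 and 3.38.

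Family sums differed less than the copies did. The Rps3a sum in C57_ESC was 0.898 of that in E14_ESC and 0.695 of that in TG2A_ESC. The Eno1 sum in C57_ESC was 0.78 of that in E14_ESC and 0.863 of that in TG2A_ESC, and the Hmga1 sum was 1.4 times and 1.13 times the sums in E14_ESC and TG2A_ESC. The Eif3j sum departed most from E14_ESC, at 1.72 times, and was 1.13 times that in TG2A_ESC. Counts of these genes were fractional in 6 or 7 of the 7 libraries, so reads matching several members were shared out, and values of single members are uncertain. The copies were also low in C57_PrESC, where Rps3a3 had 0 and 4.01 CPM, against 370 and 360 CPM in EPZ_iPrE1 and 366 and 381 CPM in EPZ_iPrE2. How E14 reads align to an assembly of another strain was not tested. Pnp2 ran the other way among the rises, with 25.2 and 8.33 CPM in C57_ESC, against 0, 0 and 0.112 CPM in E14_ESC and 0.364 and 0.262 CPM in TG2A_ESC. Its counts were fractional in 5 of the 7 libraries, and in C57_PrESC it had 0.203 and 0.291 CPM. Pnp2 lies between 40 and 80 Mb on chromosome 14, a stretch described below where 43.7% of tested genes rose. The other member, Pnp, rose by 0.67 on the log2 scale against E14_ESC and fell by 0.5 against TG2A_ESC. The family members in this and the preceding paragraph were paired after their values were seen.

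**Figure D3:**
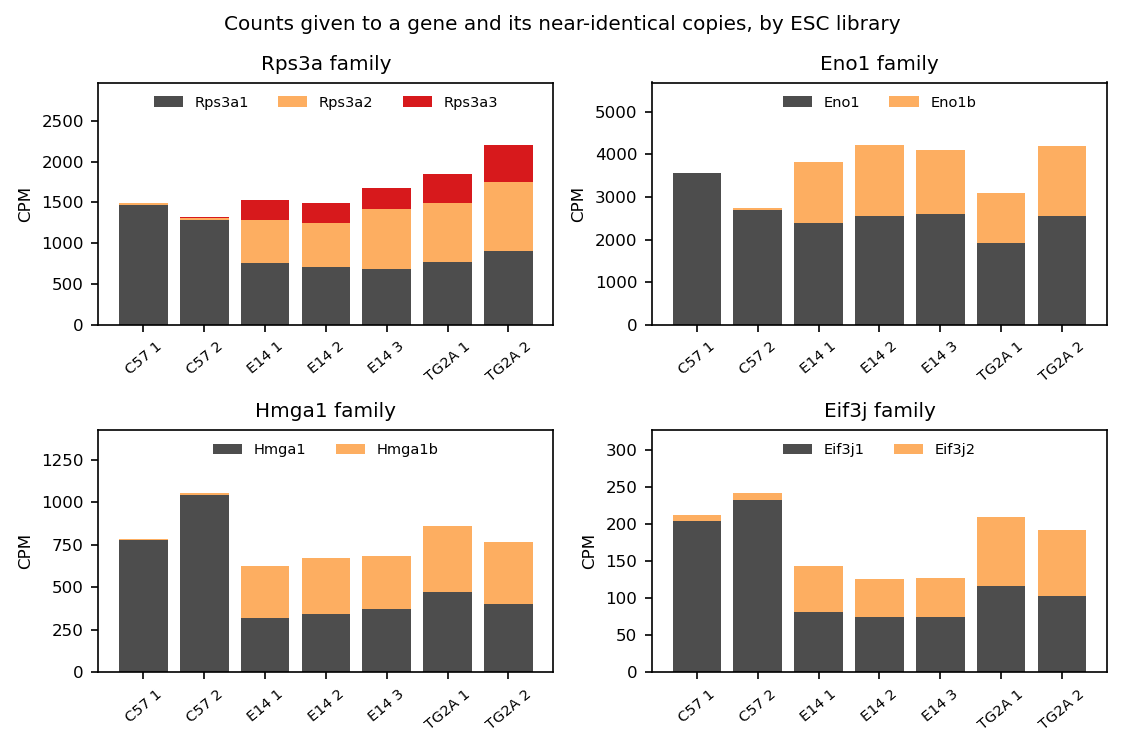
Stacked bars of CPM given to each member of 4 gene families in the 7 ESC libraries, C57_ESC first. Rps3a3, Rps3a2, Eno1b, Hmga1b and Eif3j2 make up much of the E14 bars and almost none of the C57_ESC bars, while the whole bars differ less.

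Imprinted genes were among the agreeing genes in both directions, mostly as rises. They are transcribed from 1 parental allele, under the control of differentially methylated regions set in the germ line. Of 41 tested members of the list, 16 rose (39%, against 11.4% of all tested genes) and 5 fell (12.2%, against 10.3%). The list median was 0.94 against E14_ESC and 0.92 against TG2A_ESC on the log2 scale, beside 0 and 0.02 over all tested genes. These counts were 15 rises and 3 falls without C57_ESC replicate 2 and 17 rises and 5 falls without replicate 1. Of 23 tested genes known to be expressed from the paternal allele, 12 rose and 1 fell, and of 11 known to be expressed from the maternal allele, 4 rose and 1 fell. For 19 of the 21 imprinted genes called, the C57_ESC libraries did not overlap the 5 E14 libraries, Igf2 and Zfp264 being the others.

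Peg3 (ENSMUSG00000002265, chr7:6703892-6730431, minus strand) encodes a paternally expressed zinc finger protein. It had 723 and 1230 CPM in C57_ESC, against 52.6, 46.8 and 49.5 CPM in E14_ESC and 29.8 and 23.1 CPM in TG2A_ESC. The log2 rise was 4.3 ± 0.17 against E14_ESC and 5.21 ± 0.21 against TG2A_ESC (SE, edgeR adjusted p = 2.81e-11 and 3.07e-11). All 4 C57 libraries lay above all 18 E14 libraries for this gene. Zfp264, at the same cluster, went the other way with 1.7 and 4.04 CPM in C57_ESC, against 14.6, 9.45 and 7.13 CPM in E14_ESC and 10.3 and 3.77 CPM in TG2A_ESC, and lost its call without C57_ESC replicate 1 or TG2A_ESC replicate 1.

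Plagl1, a paternally expressed zinc finger gene of growth control, had 14.8 and 10.2 CPM in C57_ESC, against 0.419, 0.658 and 1.19 CPM in E14_ESC and 0.781 and 0.262 CPM in TG2A_ESC. Mest, a paternally expressed hydrolase gene, had 151 and 207 CPM in C57_ESC, against 12.9, 10.2 and 12.8 CPM in E14_ESC and 44.5 and 22.5 CPM in TG2A_ESC. Peg10, a retrotransposon-derived gene needed in the placenta, had 773 and 423 CPM in C57_ESC, against 128, 135 and 195 CPM in E14_ESC and 237 and 155 CPM in TG2A_ESC. In all of them both C57_ESC libraries stood above all 5 E14 libraries. Snrpn, Peg12, Nnat, Impact and Sfmbt2 rose by 1.32, 2.97, 2.05, 1.33 and 2.26 on the log2 scale against E14_ESC and by 0.92, 3.09, 1.27, 1.4 and 3.9 against TG2A_ESC. Zrsr1 and Zdbf2 rose by 1.02 and 0.69 against E14_ESC and by 0.6 and 0.87 against TG2A_ESC, Zrsr1 being lost without C57_ESC replicate 2 or TG2A_ESC replicate 1 and Zdbf2 without C57_ESC replicate 1, E14_ESC replicate 2, E14_ESC replicate 3 or TG2A_ESC replicate 2. Counts of Mest and Snrpn were fractional in 6 and 7 of the 7 libraries.

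The noncoding RNAs of the Dlk1-Dio3 cluster on chromosome 12, expressed from the maternal allele, were higher together in C57_ESC. Meg3 (chr12:109541001-109571726, plus strand) had 30.4 and 52.3 CPM in C57_ESC, against 1.38, 2.03 and 3.62 CPM in E14_ESC and 1.77 and 2.67 CPM in TG2A_ESC. Rian (chr12:109603940-109661716, plus strand) had 64.2 and 101 CPM in C57_ESC, against 4.25, 4.07 and 4.07 CPM in E14_ESC and 3.59 and 3.88 CPM in TG2A_ESC. Mirg, farther along the cluster, had 3.02 and 3.18 CPM in C57_ESC, against 0, 0 and 0.261 CPM in E14_ESC and 0.104 and 0.629 CPM in TG2A_ESC, and lost its call without TG2A_ESC replicate 1. Meg3 and Rian rose by 4.09 ± 0.767 and 4.32 ± 0.692 on the log2 scale against E14_ESC (SE, edgeR adjusted p = 0.000701 and 0.000186). Dlk1, the paternally expressed gene of the cluster, had 0.795 and 2.12 CPM in C57_ESC, against 0.838, 1.2 and 1.31 CPM in E14_ESC and 2.81 and 2.62 CPM in TG2A_ESC, and was called in neither contrast. In C57_PrESC, Rian had 0.135 and 18.8 CPM, against 2.84 and 0.858 CPM in EPZ_iPrE1 and 175 and 227 CPM in EPZ_iPrE2. Meg3 had 0.135 and 15.6 CPM there, against 2.46 and 0.78 CPM in EPZ_iPrE1 and 88.9 and 126 CPM in EPZ_iPrE2. Both were called lower against EPZ_iPrE2 and were not called against EPZ_iPrE1.

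H19, the maternally expressed noncoding RNA beside Igf2, had 35.6 and 387 CPM in C57_ESC, against 2.4, 2.99 and 3.17 CPM in E14_ESC and 4.06 and 0.367 CPM in TG2A_ESC. Both libraries lay above all 5 E14 libraries, and the size of the rise rests on replicate 2: it was 6.19 on the log2 scale against E14_ESC and 6.57 against TG2A_ESC, and 3.61 and 3.99 without that library. Igf2, a growth factor gene expressed from the paternal allele, had 14.8 and 52.3 CPM in C57_ESC, against 6.29, 5.14 and 16.9 CPM in E14_ESC and 8.22 and 7.29 CPM in TG2A_ESC, and its call was lost without C57_ESC replicate 2 or TG2A_ESC replicate 2. Both genes were highest in the library with the highest fibroblast marker sum, and the part of those cells was not tested. Grb10, a growth inhibitor gene expressed from the maternal allele in most tissues, fell, with 47.6 and 56.1 CPM in C57_ESC, against 206, 190 and 172 CPM in E14_ESC and 275 and 160 CPM in TG2A_ESC. The smaller falls of Ddc, Mcts2 and Blcap, by 0.77, 0.47 and 0.43 against E14_ESC, were lost without C57_ESC replicate 2, that of Mcts2 also without E14_ESC replicate 1 or E14_ESC replicate 3.

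**Figure D4:**
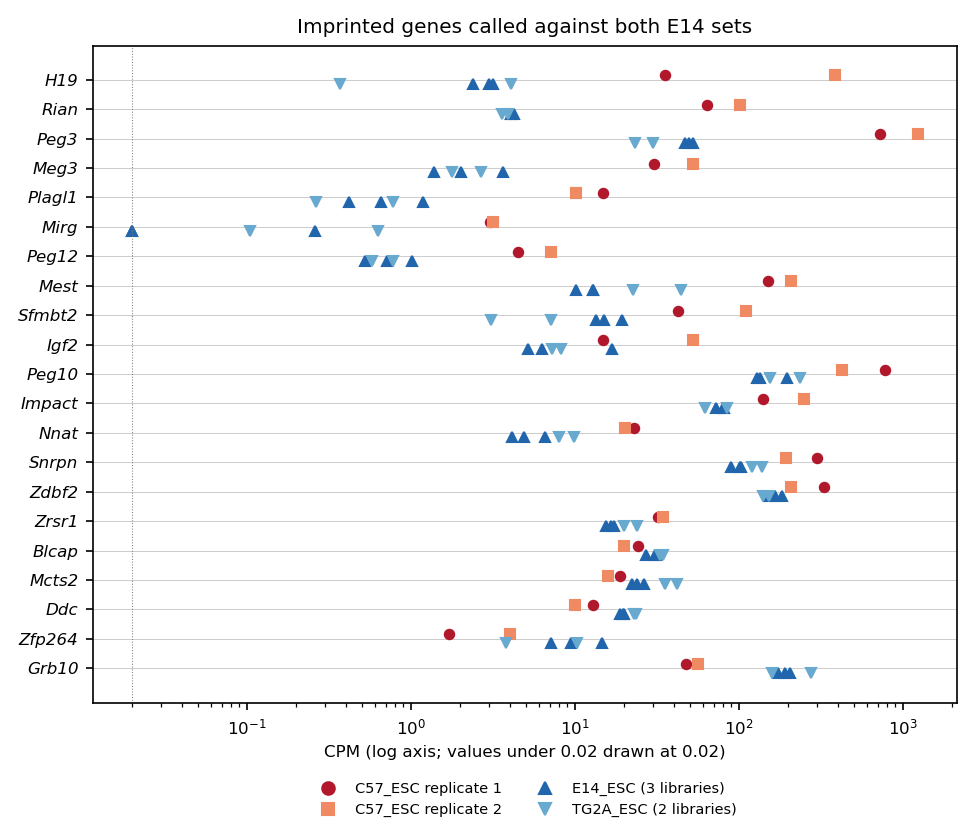
CPM on a log axis in each of the 7 ESC libraries for the 21 imprinted genes called against both E14 sets, C57_ESC points drawn just above the E14 points. The 16 rises (top rows) have both C57_ESC points to the right of all E14 points, as Peg3 at 723 and 1230 CPM, except Igf2, and Grb10 in the bottom row has both to the left, at 47.6 and 56.1 CPM.

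The start regions of Peg3 and Plagl1 are shown because both are known to lie within differentially methylated regions, where methylation of CG pairs silences 1 allele. Capitals mark each CG, the site of DNA methylation, which is the same on both strands, and the windows are RefSeq's (GRCm38.p6).
Peg3, chr7:6730370-6730669, minus strand: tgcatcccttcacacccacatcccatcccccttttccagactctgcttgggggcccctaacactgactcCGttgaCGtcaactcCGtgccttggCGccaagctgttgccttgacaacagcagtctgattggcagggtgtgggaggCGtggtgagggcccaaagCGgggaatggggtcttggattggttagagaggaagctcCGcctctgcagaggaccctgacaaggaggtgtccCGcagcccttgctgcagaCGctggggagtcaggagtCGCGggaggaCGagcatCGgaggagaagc
Plagl1, chr10:13090582-13090881, plus strand: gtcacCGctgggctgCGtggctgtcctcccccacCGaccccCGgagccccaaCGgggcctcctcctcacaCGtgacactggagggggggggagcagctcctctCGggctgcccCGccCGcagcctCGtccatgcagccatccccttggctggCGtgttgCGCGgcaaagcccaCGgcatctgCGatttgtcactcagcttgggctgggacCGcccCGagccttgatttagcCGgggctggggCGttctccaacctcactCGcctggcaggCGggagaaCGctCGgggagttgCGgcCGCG
The Peg3 window held 13 CG pairs and the Plagl1 window 26, where the median over 32851 windows was 7 and 37.9% held at least 13 and 16.9% at least 26. DNA methylation was not analysed here.

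Enzymes that set or remove DNA methylation were mostly not called against both sets: of 10 tested, 2 rose (20%, against 11.4% of all tested genes) and none fell (against 10.3%). Dnmt3a is given above. Tdg, a glycosylase that excises oxidised methylcytosine, had 167 and 182 CPM in C57_ESC, against 66.2, 65.2 and 54.9 CPM in E14_ESC and 48.2 and 39.5 CPM in TG2A_ESC, and all 4 C57 libraries lay above all 18 E14 libraries. Its counts were fractional in all 7 libraries. Of 12 tested PRC2 subunit genes, 2 rose (16.7%) and 1 fell (8.33%). Suz12, a core subunit of PRC2, had 428 and 813 CPM in C57_ESC, against 287, 270 and 220 CPM in E14_ESC and 301 and 261 CPM in TG2A_ESC. Phf1, an accessory subunit, fell by 1.07 and 0.88 on the log2 scale and lost its call without TG2A_ESC replicate 2. Phf19, another accessory subunit, had 14.4 and 72.4 CPM in C57_ESC, against 8.86, 10.1 and 13.6 CPM in E14_ESC and 13.2 and 8.75 CPM in TG2A_ESC, and lost its call without C57_ESC replicate 2 or TG2A_ESC replicate 2. Of 19 tested PRC1 genes, 5 rose (26.3%) and 2 fell (10.5%), the falls at the share of all tested genes. Cbx7, the main chromodomain subunit of PRC1 in ESCs, averaged 190 ± 12 CPM in C57_ESC (SD, n = 2), against 122 ± 7.99 CPM in E14_ESC (SD, n = 3) and 103 ± 8.67 CPM in TG2A_ESC (SD, n = 2).

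KRAB zinc finger genes, whose proteins silence retroelements and many of which lie in clusters that differ between strains, showed 9 rises (29%, against 11.4% of all tested genes) and 3 falls (9.68%, against 10.3%) among 31 tested. Without C57_ESC replicate 2 there were 5 rises and 1 fall, where 7.73% and 7.47% of all tested genes were called. Zfp429 had 6.09 and 6.81 CPM in C57_ESC, against 0.479, 0.538 and 0.336 CPM in E14_ESC and 0.624 and 0.367 CPM in TG2A_ESC. Zfp990 went the other way, with 50.4 and 33.1 CPM in C57_ESC, against 186, 160 and 194 CPM in E14_ESC and 160 and 250 CPM in TG2A_ESC. In PrE cells the list did not follow the ESC rises: 2 of the 31 were higher and 17 lower in both contrasts (11.9% and 14.4% of all tested genes), and 1 of the 9 ESC rises, Zfp429, was also called higher. Zfp993 and Zfp992, which rose in C57_ESC, were called lower in C57_PrESC, by 3.53 and 5.3 on the log2 scale below EPZ_iPrE1 and by 3.01 and 5.19 below EPZ_iPrE2. Zfp990 was lower there too, and had 1.02 and 1.28 CPM in C57_PrESC, against 222 and 200 CPM in EPZ_iPrE1 and 245 and 242 CPM in EPZ_iPrE2. The ESC rise of Zfp992, on 47.3 and 144 CPM in C57_ESC, lost its call without C57_ESC replicate 2 or TG2A_ESC replicate 2. Counts of these 4 genes were fractional in 6 or 7 libraries, and reads could be shared with near-identical members of the family.

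Among 24 tested genes reported to differ between C57BL/6 mice and the strain family of E14, 5 rose (20.8%, against 11.4% of all tested genes) and 4 fell (16.7%, against 10.3%). Wdfy1, an adaptor of Toll-like receptors, had 11.8 and 9.94 CPM in C57_ESC, against 69.8, 70.1 and 64.7 CPM in E14_ESC and 44.4 and 54.6 CPM in TG2A_ESC. Glo1, a glyoxalase gene, had 144 and 111 CPM in C57_ESC, against 232, 226 and 269 CPM in E14_ESC and 241 and 287 CPM in TG2A_ESC. Ide, the insulin-degrading enzyme gene, had 232 and 247 CPM in C57_ESC, against 169, 169 and 159 CPM in E14_ESC and 155 and 109 CPM in TG2A_ESC. Trim34b was near 0 in C57_ESC at 0 and 0.0505 CPM, against 1.92, 0.956 and 1.68 CPM in E14_ESC and 1.67 and 1.31 CPM in TG2A_ESC, while its neighbour Trim34a rose by 1.91 and 2.86. Entpd4b and Entpd4 rose by 1.58 and 0.94 against E14_ESC, Entpd4 being lost without C57_ESC replicate 1 or TG2A_ESC replicate 2. Both genes lie between 40 and 80 Mb on chromosome 14, a stretch described below. There, 43.7% of tested genes rose and the median was 0.86 against E14_ESC. Trim12a was called on 1.17 and 7.87 CPM in C57_ESC with no count in the E14 libraries, at least 90.7-fold over E14_ESC and at least 57.7-fold over TG2A_ESC from a floor of 3 counts over each set. Without C57_ESC replicate 2 these bounds are 23.4-fold and 14.9-fold, and the call was lost without TG2A_ESC replicate 2. Gbp2b had no count in C57_ESC, against 0.479, 0.299 and 1.34 CPM in E14_ESC and 1.56 and 0 CPM in TG2A_ESC, and lost its call without either C57_ESC library, E14_ESC replicate 3 or TG2A_ESC replicate 1. Nnt, a mitochondrial transhydrogenase gene that is truncated in C57BL/6J mice, was not called lower. It had 30.4 and 54.8 CPM in C57_ESC, against 26.1, 21.3 and 26 CPM in E14_ESC and 14.2 and 29.8 CPM in TG2A_ESC. Nnt was called higher against TG2A_ESC (edgeR adjusted p = 0.0483) but not against E14_ESC (edgeR adjusted p = 0.0688). In C57_PrESC it had 14.1 and 35.1 CPM, against 1.31 and 2.18 CPM in EPZ_iPrE1 and 1.17 and 0.921 CPM in EPZ_iPrE2, and was called higher in both contrasts. Counts of Glo1, Trim34a, Trim34b, Entpd4 and Entpd4b were fractional in 6 or 7 of the 7 libraries. Part of their counts was thus shared with other features, and their single values are uncertain.

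For the remaining lists, the shares over all tested genes are again 11.4% for rises and 10.3% for falls. The glutathione and xenobiotic list had 11 rises (31.4%) and 4 falls (11.4%) among 35 tested, with 5 and 4 without C57_ESC replicate 2. Gstm6, a glutathione transferase gene, had 2.81 and 4.8 CPM in C57_ESC, against 0.958, 0.956 and 1.34 CPM in E14_ESC and 0.468 and 0.21 CPM in TG2A_ESC. Gstp2, another, had 31.2 and 155 CPM in C57_ESC, against means of 20.6 ± 3.62 CPM in E14_ESC (SD, n = 3) and 21.8 ± 2.44 CPM in TG2A_ESC (SD, n = 2), and lost its call without C57_ESC replicate 2. The antigen presentation list had 5 rises (20%) and 2 falls (8%) among 25. Cd1d1, a lipid antigen-presenting gene, fell, with 1.43 and 3.08 CPM in C57_ESC, against 6.47, 7.17 and 7.2 CPM in E14_ESC and 8.17 and 6.39 CPM in TG2A_ESC, and lost its call without C57_ESC replicate 1 or TG2A_ESC replicate 1. The 2-cell-like list had 0 rises and 2 falls among 8, Zscan4f and Gm4340, on a list sum of 0.159 and 3.79 CPM in C57_ESC, against 28.8, 13.9 and 2.13 CPM in E14_ESC and 18.8 and 6.81 CPM in TG2A_ESC. Zscan4f lost its call without C57_ESC replicate 1 or TG2A_ESC replicate 1, and Gm4340 without C57_ESC replicate 1. The LIF and STAT3 list had 2 rises (18.2%) and 3 falls (27.3%) among 11, and the trophoblast list 2 (20%) and 1 (10%) among 10. None of the falls in either list stayed called without C57_ESC replicate 2. Shares of rises in the ERK list (2 of 16, 12.5%), the Wnt list (1 of 13, 7.69%), the germline list (1 of 15, 6.67%) and the stress list (1 of 17, 5.88%) were near or below that of all tested genes, as were their shares of falls, with 0, 0, 1 (6.67%) and 2 (11.8%). Of 21 glycolysis genes, 0 rose and 1 fell, Ldhb, with 95.4 and 194 CPM in C57_ESC, against 332, 387 and 342 CPM in E14_ESC and 309 and 329 CPM in TG2A_ESC. Primitive streak and macrophage lists had 0 calls in either direction among 9 tested each.

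Chromosome 14 had the highest share of rises of the 19 autosomes. Of 608 tested genes there, 181 rose (29.8%, against 11.4% over all autosomes) and 46 fell (7.57%), and the chromosome's median log2 difference was 0.49 against E14_ESC and 0.42 against TG2A_ESC, where the median over all autosomes was 0 and 0.02. Both C57_ESC libraries showed it, at 0.43 and 0.42 relative to the E14 mean, and the 5 E14 libraries, each relative to the other 4, lay between -0.04 and 0.03. The difference was concentrated between 40 and 80 Mb, a stretch chosen after the bins of 20 Mb were seen. Of 323 tested genes in it, 141 rose (43.7%) and 10 fell (3.1%), and its median was 0.86 against E14_ESC and 0.74 against TG2A_ESC. C57_PrESC libraries had 0.65 and 0.7 over the same genes relative to the mean of the EPZ libraries. Medians in the bins from 0 to 20 Mb and from 20 to 40 Mb were -0.21 and 0.04 against E14_ESC and -0.34 and 0.06 against TG2A_ESC.

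Chromosomes 11 and 1 differed in other ways. Chromosome 11 had a median of 0.23 against E14_ESC and 0.18 against TG2A_ESC, with 227 rises (16.9%) and 54 falls (4.02%) among 1344 genes. Here the C57_ESC libraries disagreed: replicate 1 was at -0.01 and replicate 2 at 0.37, the highest value of any ESC library on chromosome 11. Suz12, Spred2 and the other rises on chromosome 11 stand beside this value. Chromosome 1 had a median of -0.26 against E14_ESC and -0.09 against TG2A_ESC, with 80 rises (7.65%) and 207 falls (19.8%) among 1046 genes, and both C57_ESC libraries lay at -0.21 and -0.18. All 6 bins of 20 Mb from 60 to 180 Mb had medians from -0.31 to -0.56 against E14_ESC and from -0.06 to -0.51 against TG2A_ESC, and the bins outside that stretch had medians from 0 to 0.22 and from 0 to 0.31 in the same order. E14_ESC itself had a median 0.16 above TG2A_ESC on chromosome 1. Relative to the mean of the EPZ libraries, C57_PrESC lay at -0.12 and -0.08 on chromosome 11 and at -0.14 and -0.04 on chromosome 1. A shift in C57_PrESC was not particular to chromosome 14, where it was 0.44 and 0.52. Chromosome 19 had 0.44 and 0.47 there, and chromosome 16 had 0.23 and 0.29. In C57_ESC, chromosome 19 lay at -0.06 and -0.16 and chromosome 16 at 0.01 and -0.04. The X chromosome, not among the autosomal results, had a median of 0.15 against E14_ESC, with -0.03 in replicate 1 and 0.19 in replicate 2. DNA copy number was not measured in these files, and its part in these medians was not tested.

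**Figure D5:**
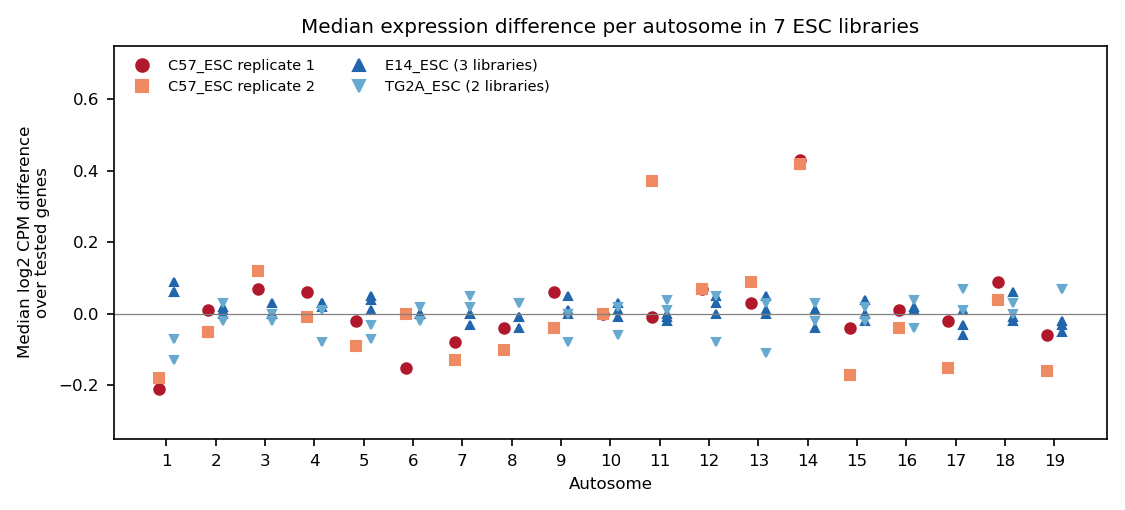
Median log2 CPM difference over the tested genes of each autosome, for the 2 C57_ESC libraries (left in each column), relative to the mean of the E14 group means, and for the 5 E14 libraries (right), each relative to the mean of the other 4. Chromosome 14 has both C57_ESC libraries at 0.43 and 0.42, chromosome 11 has replicate 2 alone at 0.37, and chromosome 1 has both C57_ESC libraries at -0.21 and -0.18.

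PrE stem cell libraries offered a contrast of the same line labels in samples outside the contrasts that chose the agreeing genes, although all 22 libraries shared the fit, its filter and its estimate of spread. C57_PrESC was set against EPZ_iPrE1, where 2830 genes rose and 3185 fell (35.8% of those tested), and against EPZ_iPrE2, where 2682 rose and 3119 fell (34.5%). The EPZ lines were made with an EZH2 inhibitor from ESCs, and the sources used here do not say how C57_PrESC was obtained, so line and origin cannot be told apart. Of the 1923 agreeing ESC rises, 491 (25.5%) were also called higher against both EPZ lines and 216 (11.2%) lower, where 11.9% of all tested genes were called higher and 14.4% lower. Of the 1729 agreeing falls, 461 (26.7%) were also called lower and 133 (7.69%) higher. The 491 shared rises were 24.6% of 2000 PrE rises, and the 461 shared falls were among 2415 PrE falls. Both PrE contrasts use the same C57_PrESC libraries, one of which, replicate 2, had a fibroblast marker sum of 3520 CPM, against 50 CPM in replicate 1. Among agreeing genes, 217 rises and 245 falls had all 4 C57 libraries apart from all 18 E14 libraries of the series, where 1.55% of all tested genes lay wholly above and 1.66% wholly below. This comparison includes the 7 libraries that chose the agreeing genes. Their excess over all tested genes was therefore partly fixed by that choice, and these counts are a description.

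Of the 15 largest ESC falls, 7 were also called lower in both PrE contrasts: Rps3a3, Rps3a2, Eno1b, Hmga1b, Eif3j2, Mmrn2 and Ccnb1ip1. Of the 15 largest rises, Nod1 and Acta2 were also called higher. Nod1 had 25.4 and 25.8 CPM in C57_PrESC, whereas Acta2 had 0.745 and 56.5 CPM, high only in the library with 3520 CPM of fibroblast markers. In C57_PrESC Triml2 had 33.6 and 23.8 CPM, against 119 and 134 CPM in EPZ_iPrE1 and 122 and 112 CPM in EPZ_iPrE2, a fall in both contrasts. Zfp42 had 59.7 and 59.8 CPM in C57_PrESC, against 52.4 and 56.6 CPM in EPZ_iPrE1 and 56.5 and 50.9 CPM in EPZ_iPrE2, and was called in neither (edgeR adjusted p = 0.455 and 0.39). Olig1 and Olig2 were at 0 in both C57_PrESC libraries. Peg3 was still higher, by 1.42 and 1.26 on the log2 scale, with 367 and 336 CPM in C57_PrESC, against 130 and 132 CPM in EPZ_iPrE1 and 134 and 160 CPM in EPZ_iPrE2. Of the 21 imprinted genes called in ESCs, 5, Peg3 among them, were called in the same direction in both PrE contrasts and 2 in the opposite direction. Snrpn, 1 of these 2, had 9.34 and 9.71 CPM in C57_PrESC, against 29.7 and 27.4 CPM in EPZ_iPrE1 and 27.8 and 31.6 CPM in EPZ_iPrE2. Over paternally expressed genes, 4 of 23 were higher and 3 lower in both PrE contrasts, and over maternally expressed genes 0 of 11 were higher and 4 lower. Of all tested genes, 11.9% were higher and 14.4% lower in both. Igf2r, a maternally expressed receptor gene, had 63.4 and 160 CPM in C57_PrESC, against 611 and 622 CPM in EPZ_iPrE1 and 815 and 795 CPM in EPZ_iPrE2, while in C57_ESC it was called higher in the TG2A_ESC contrast alone.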

How the data were processed

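RNA-seq of 22 mouse libraries in 10 groups was used, of which 7 entered the line comparison. The authors deposited 1 table of estimated counts per gene symbol (55367 symbols), not scaled; per the submitters' processing notes, Trim Galore, STAR 2.7.6a, DESeq2 and mm10 were used. Counting tool, annotation and strand: not given in the sources used here. Per the labels the molecule is polyA RNA and the kit removes rRNA, so the RNA selection is uncertain. The plan assumed raw counts, but 5.71 to 7.26% of symbols per library were fractional and held 27 to 37.2% of counts, so values were rounded. Reads from a gene and its antisense partner cannot be told apart. Library totals of 16.2 to 26.3 M limit the precision of low genes.

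The edgeR 4.0.16 quasi-likelihood test (R 4.3.3, TMM scaling, filterByExpr, 17547 genes kept) was fitted to all 22 libraries with 1 coefficient per group and 12 residual degrees of freedom. P-values were adjusted by Benjamini-Hochberg over all kept genes, and calls had an adjusted p below 0.05. The fit was tested on simulated data. Autosomal genes were found by symbol in GENCODE M21 or RefSeq (53186 symbols matched once in GENCODE). mm10 is the assembly of C57BL/6J, so E14 reads may align differently. Fold bounds use a floor of 3 counts over a group and cover counting error only.

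Named genes were 12 landmark genes, the 15 largest rises and falls (at least 10 CPM in the higher line, no overlap of libraries, no predicted model), up to 4 agreeing members per list, members against their list's direction and tested strain variant genes. Other genes, among them most imprinted genes, list members beyond 4, Triml1, Triml2 and the partners of gene copies, were chosen after their values were seen. Of the 15 largest falls, 1 is not reported here. The members and lists were chosen with earlier results of these data known. Alternatives were RLE scaling, no filter, DESeq2 1.42.0, only the groups compared, a replicate block, genes with whole counts, a fold of at least 2 and leaving out each library. Fits that left out a library were filtered anew. Shares of all tested genes given without a C57_ESC replicate are of the genes tested in that refit. List members counted without a replicate had also passed the filter on all 22 libraries, so these sets of genes differ slightly.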

Additional observations from a re-analysis of the deposited data

Results flagged for a closer look

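For 30 genes with the largest ESC changes, the line difference in ESCs was compared with that in PrE stem cells in 1 edgeR model, C57_ESC less the mean of both E14 sets minus C57_PrESC less the mean of both EPZ lines. Those whose difference had an adjusted p below 0.05 over all tested genes numbered 10, of which 9 are given here. The 30 genes were chosen for their ESC changes, and that choice favours a larger difference in ESCs, so the values are a description and not a test. Line and origin of the PrE cells cannot be told apart in this contrast. Lox, an enzyme that crosslinks collagen, had a difference of 7.98 ± 2.35 on the log2 scale (SE) and Ptgs2, a prostaglandin synthase gene, one of 5.8 ± 1.82 (SE). In both, C57_ESC replicate 2 and C57_PrESC replicate 2 were far above their partner libraries. H19 differed by 7.49 ± 1.27 (SE), with 130 and 415 CPM in C57_PrESC, against 1060 and 280 CPM in EPZ_iPrE1 and 174 and 869 CPM in EPZ_iPrE2. Nod1 was higher in C57 cells of both types, and more so in ESCs, by 2.36 ± 0.434 (SE).

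Among the falls, Zfp42 differed by -3.5 ± 0.162 (SE), and it was not called in PrE cells. Slc30a2, a zinc transporter gene, differed by -5.23 ± 0.636 (SE), with 2.71 and 1.05 CPM in C57_PrESC and at most 0.768 CPM in the EPZ libraries. Fxyd6 differed by -5.26 ± 0.863 (SE), with 0 and 6.28 CPM in C57_PrESC and at most 1.17 CPM in the EPZ libraries. The PrE side of both differences thus rests on low levels, for Fxyd6 on C57_PrESC replicate 2 alone. Kbtbd11 differed by -7.12 ± 1.27 (SE), on at most 0.64 CPM in any PrE library named here. Ptprv differed by -5.6 ± 1.17 (SE), with 0.271 and 11.6 CPM in C57_PrESC.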

How the results depend on the processing

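Agreeing genes numbered 2002 up and 1770 down under DESeq2, 1936 and 1702 under RLE scaling, and 2171 and 1532 without the filter; none of the agreeing genes was called in the opposite direction under any alternative run. Fitting only the groups compared gave 1685 falls against E14_ESC, 889 and 1081 genes higher and lower in E14_ESC than in TG2A_ESC, 1328 agreeing rises and 1057 agreeing falls, 289 and 283 of them also called in PrE cells, and 2 imprinted falls. Keeping only genes with whole counts gave 2131 falls against TG2A_ESC, 1422 genes lower in E14_ESC than in TG2A_ESC, 1124 agreeing falls and 249 falls shared with PrE cells. At a fold of at least 2, 1420 rose and 1112 fell against E14_ESC, 1710 and 1164 against TG2A_ESC, 580 and 406 were higher and lower in E14_ESC than in TG2A_ESC, 908 and 649 agreed, 163 and 206 were shared with PrE cells, and 2 imprinted genes fell. Imprinted falls numbered 3 without the filter, and the chromosome 14 median against TG2A_ESC was 0.43 under RLE scaling.

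Nothing in the labels says that the numbers 1 and 2 pair the samples. Replicate differences correlated at -0.164 between C57_ESC and TG2A_ESC and at -0.0106 between C57_ESC and E14_ESC. They correlated at 0.294 between C57_ESC and C57_PrESC, and at -0.32 and 0.38 between C57_PrESC and EPZ_iPrE1 and EPZ_iPrE2. A replicate block gave 1625 agreeing rises and 1459 falls, 3 imprinted falls and -0.05 for Tfcp2l1 against TG2A_ESC. With the C57_ESC numbers crossed, chosen after seeing the data, it gave 1638 and 1487.

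Leaving out each library gave 1360 to 2093 agreeing rises, 1315 to 1753 agreeing falls, 3 to 5 imprinted falls, and 729 to 2251 genes higher and 889 to 2544 lower in E14_ESC than in TG2A_ESC. For chromosome medians, only C57_ESC replicate 1 and C57_ESC replicate 2 were left out in turn. Chromosome 1 medians then ranged from -0.34 to -0.24 against E14_ESC and from -0.16 to -0.08 against TG2A_ESC. Chromosome 14 medians ranged from 0.36 to 0.43 and from 0.35 to 0.38 in the same order. Chromosome 11 medians were 0.39 and 0.37 without replicate 1, and 0 and -0.02 without replicate 2. With each library left out in turn, genes not called changed sign: against E14_ESC, Pou5f1 ranged from -0.46 to 0.24, Klf4 from -0.84 to 1.54 and Prdm14 from -0.59 to 0.12. Against TG2A_ESC, Esrrb ranged from -0.76 to 0.03, Klf4 from -0.98 to 1.38, Tfcp2l1 from -1.03 to 0.66, Prdm14 from -0.48 to 0.21, Otx2 from -2.33 to 0.35, Ezh2 from -0.01 to 0.27 and Nes, called in the full fit, from -0.18 to 2.52. The cause of these changes was not tested. With 2 C57_ESC libraries, leaving 1 out assumes that the other varies like the other groups.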
